A study of Mus musculus with 12 samples.

Results

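The 10 genes described here encode chaperones of the endoplasmic reticulum (ER) and genes of the unfolded protein response (UPR). They are the lumenal chaperone genes Hspa5 and Hsp90b1, the lectin chaperone genes Calr and Canx, the disulfide isomerase genes Pdia3, Pdia4 and Pdia6, and the UPR genes Xbp1, Dnajb9 and Herpud1. They were chosen by their symbols, over all 12 deposited columns. All 10 were among the 14675 gene IDs of the table, and all 10 were among the 8085 genes with enough counts to be tested.

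RNA of adult mouse dorsal root ganglion (DRG) neurons was sequenced in 4 groups of 3 columns. All groups shared the genotype RPL22HA+/+;Advillin-Cre+, in which Cre driven by the sensory neuron gene Advillin switches on an HA-tagged ribosomal protein (RiboTag), so that an antibody against HA pulls down the ribosomes of those neurons. Input is the RNA before and IP the RNA after that pull-down. Each was taken with AAV-shGpr151 alone, a virus with a hairpin RNA against Gpr151, and with AAV-shGpr151 plus AAV-e5'UTR (e5UTR below). All of them thus received the hairpin, and no animals lacking it were analysed here. The labels give neither the insert of the e5UTR virus, nor the sex or number of animals. Whether the neurons were cultured after a preconditioning sciatic nerve injury, as the design text has it, or came from fresh ganglia, as the protocol has it, is not settled by the sources used here.

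Secreted and membrane proteins fold in the ER, where chaperones bind unfolded chains, lectins hold sugar-bearing chains, and isomerases form and exchange disulfide bonds. When unfolded chains build up, the sensors IRE1, PERK and ATF6 start the UPR: IRE1 splices the Xbp1 mRNA, ATF6 is cut to release a transcription factor, and PERK phosphorylates eIF2alpha, which favours translation of Atf4. XBP1 and ATF6 then raise transcription of chaperones and of genes that remove misfolded proteins, partly through ER stress response elements in promoters. DRG neurons make large amounts of receptors, channels and secreted peptides, and axon injury is known to engage the UPR in them.

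ER stress response elements are the known binding sites of the UPR factors in the promoters of these genes, and are shown for the 6 members in which one was found. The type I element is CCAAT followed, after 9 bases of any kind, by CCACG. The type II element is ATTGG, 1 base of any kind, then CCACG. Exact matches on both strands were searched in the 250 bases before the RefSeq gene start (build GRCm38.p6), where all 10 members had an entry. In the matches below, written 5′ to 3′ on the strand that carries the motif, capitals mark the fixed bases and lower case the bases between and 5 bases on each side.
Hspa5 (chr2:34772020-34772048, plus strand): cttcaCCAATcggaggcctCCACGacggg
Hsp90b1, far element (chr10:86705633-86705661, minus strand): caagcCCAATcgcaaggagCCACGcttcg
Hsp90b1, near element (chr10:86705528-86705556, plus strand): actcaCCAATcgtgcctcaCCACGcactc
Calr (chr8:84847070-84847098, plus strand): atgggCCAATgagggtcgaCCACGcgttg
Canx (chr11:50325795-50325823, minus strand): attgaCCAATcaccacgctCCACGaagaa
Pdia6 (chr12:17266486-17266514, plus strand): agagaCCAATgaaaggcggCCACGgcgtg
Herpud1 (chr8:94386372-94386392, plus strand): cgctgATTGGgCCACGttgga

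The type I element stood upstream of 5 of the 10 members, Hspa5, Hsp90b1, Calr, Canx and Pdia6, against 35 of 27025 genes in the table of promoters (0.130%), these 5 included. The type II element stood upstream of Herpud1, against 10 genes in the table (0.0370%), Herpud1 included. Since the elements are already known from the promoters of such genes, these shares describe the members and are not support for any result. The Hspa5 element lay 65 to 47 bases before the start and that of Herpud1 52 to 42 bases before it. The other elements lay farther away, that of Pdia6 at 98 to 80 bases, Canx at 145 to 127 and Calr at 162 to 144, and those of Hsp90b1 at 212 to 194 and 107 to 89. In Calr, and in the near element of Hsp90b1, the motif was on the strand opposite to the gene. No exact match was found for Pdia3, Pdia4, Xbp1 and Dnajb9. The core of the UPR element, TGACGTGG, matched in 0 of 10 members and in 163 genes of the table (0.603%). This core ends in CGTGG, the reverse complement of CCACG, so that a match could overlap an element on the other strand. Among the other ER genes listed for this comparison, Creld2, Derl3, Dnajc3, Ero1b and Syvn1 also held a type I element.

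**Figure D1:**
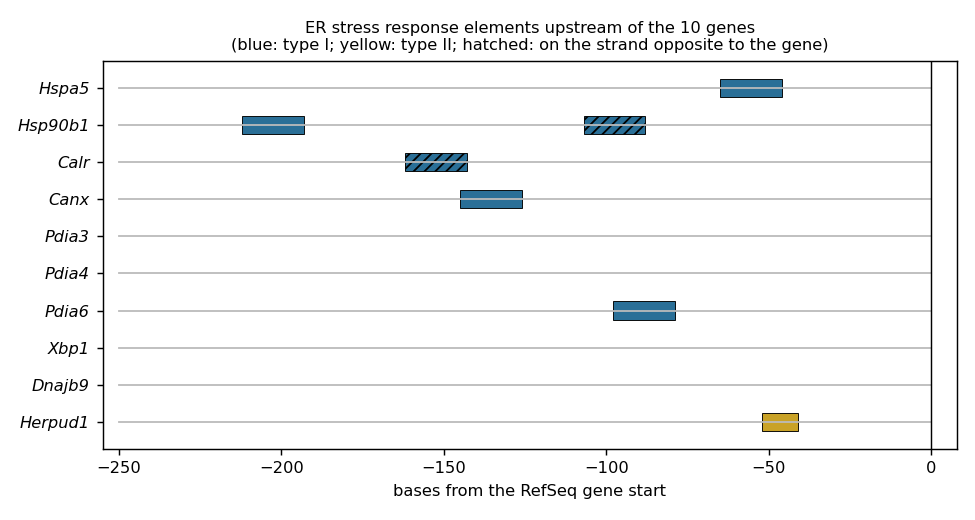
Position of the ER stress response elements in the 250 bases before the RefSeq gene start of the 10 genes (horizontal axis, bases from the start). Blue boxes are type I, the yellow box is type II and hatched boxes are on the strand opposite to the gene; 6 of the 10 genes hold an element.

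The 3 columns of each group had almost equal totals, from 975403 to 985277 estimated counts in the input groups and from 1381220 to 1517685 in the IP groups. The median gene differed between the columns of a group by 1.08 to 1.12 times what counting alone gives in a chi-square test. The 3 columns were for this reason summed to 1 pool that counts as a single sample, and since no separate animals are named, p-values reflect just the spread between pools or columns, which may be technical. Levels are given as CPM of the TMM-scaled library size, with Poisson 95% intervals (exact), and ratios of pooled counts have exact binomial 95% intervals. Both cover counting error only. Where a pool has 0 counts, the level can be as high as 1.44 CPM in input and 0.531 CPM in IP (3 counts). Gpr151, the target of the hairpin, held 35 and 29 pooled counts in input and 108 and 128 in IP. This is 16.7 and 13.9 CPM in input and 19.1 and 20.8 CPM in IP.

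The columns labelled as neurons carried all 16 sensory neuron markers in every pool, with a summed level of 5089 to 5134 CPM in input and 9443 to 9918 CPM in IP. Of these, 11 of 16 were higher and 2 lower in IP. Their log2 ratios ran from -1.21 to 2.39, with Stmn2 at 1.19. Markers of other cells were found in input and were mostly lower in IP. The 11 satellite glia markers in the table summed to 2431 to 2527 CPM in input and 454 to 461 CPM in IP (1 of 9 tested higher, 6 lower), and the 12 Schwann cell markers to 1188 to 1218 and 513 to 533 CPM (1 of 10 higher, 7 lower; Ncmap at 0 in both IP pools and Cldn19 in 1). The 12 fibroblast markers summed to 1814 to 1836 CPM in input and 551 to 648 CPM in IP (2 of 11 higher, 7 lower), and the 13 macrophage and immune markers to 259 to 263 and 109 to 119 CPM (1 of 9 higher, 7 lower; Mrc1 at 0 in both IP pools). The log2 ratios of tested markers ran from -8.23 to 1.94 for satellite glia and from -9.96 to 0.54 for Schwann cells. They ran from -4.18 to 2.30 for fibroblasts and from -5.81 to 1.31 for macrophage and immune markers. The 9 endothelial and mural markers summed to 138 to 149 CPM in input and 77.5 to 96.6 CPM in IP (0 of 4 higher, 2 lower; Cldn5 at 0 in 1 IP pool), but as a share of all counts this sum was not lower in IP (0.0106% and 0.0131%) than in input (0.00982% and 0.0106%). Falls in share were also smaller than in CPM for the lists above. The share went from 0.0864% and 0.0846% to 0.0726% and 0.0693% for Schwann cells. For macrophage and immune markers it went from 0.0184% and 0.0187% to 0.0149% and 0.0160%. For satellite glia it went from 0.173% and 0.180% to 0.0620% and 0.0624%, and for fibroblasts from 0.130% and 0.129% to 0.0751% and 0.0876%. The 5 erythroid markers fell from 2363 to 2405 CPM in input to 2.30 to 3.09 CPM in IP (4 of 4 lower; Hbb-bt and Alas2 at 0 in both IP pools and Hbb-bs in 1). Plasma cells are rich in ER chaperones. Of their markers Sdc1 was the only one tested and rose to log2 2.10, while Ighm held 2 to 9 counts per pool and Igkc was at 0 in both IP pools. Within a fraction of these bulk samples, a low marker level does not tell few cells of a type from little RNA per cell. Input and IP are RNA before and after the pull-down, so a fall between them does not count cells. The part of these other cells in the differences between IP and input below was not tested.

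The comparison of IP with input asked how much of each mRNA the tagged ribosomes carried relative to total RNA. Hspa5, Calr, Dnajb9, Xbp1 and Herpud1 were at least 2-fold higher in IP, Pdia6, Pdia3 and Canx were higher by less, and Hsp90b1 and Pdia4 did not pass the test. Thus 8 of the 10 genes were higher and 0 lower, where 69.7% of all tested genes were called, 33.5% higher and 36.2% lower, and 5 of 10 were called with at least 2-fold, against 23.2% of all tested genes. Xbp1, Dnajb9 and Herpud1 had too few counts in input to be tested by those columns alone, and were tested through their IP columns. Both the 8 and the 5 include these genes, whose calls are therefore not independent of the filter. How many of all tested genes entered in this way was not counted. The median of the 10 log2 ratios was 1.05, beside 0.06 for all 8085 genes. The test was edgeR's quasi-likelihood test on the 4 pools, 2 per fraction, with Benjamini-Hochberg adjusted p-values. The pools of a fraction differ in treatment, so they are not replicates of 1 condition. Scaled by library total in place of TMM, the median of all genes moved to 1.00 (5046 genes higher and 1893 lower, against 2706 and 2928), that of the 10 genes moved to 1.99, and all 10 were called higher.

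Hspa5 encodes BiP, the Hsp70 chaperone of the ER lumen that also holds the UPR sensors inactive. Without e5UTR the gene had 37, 47 and 39 counts per input column and 280, 250 and 304 per IP column. With e5UTR these numbers were 33, 36 and 38 for input and 327, 337 and 334 for IP. Without and with e5UTR, this came to 58.7 and 51.3 CPM in input and to 148 and 162 CPM in IP. All 6 IP columns lay above all 6 input columns. Hspa5 was 2.82-fold higher in IP, a log2 ratio of 1.49 ± 0.14 (SE; edgeR adjusted p = 4.7e-07), which is the largest of the 10 and above 87.0% of all tested genes. In the annotation Rabepk overlaps Hspa5. It held 17 and 19 pooled counts in input and 48 and 72 in IP, and its part in the counts of Hspa5 was not tested. These counts are not scaled: the scaled library sizes were 2096964 and 2087206 in input and 5652701 and 6148288 in IP.

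Hsp90b1 encodes GRP94, the Hsp90 chaperone of the ER, which folds integrins and Toll-like receptors. Its input columns held 37, 41 and 42 counts without e5UTR and 39, 36 and 43 with it, and its IP columns 116, 123 and 118 without and 137, 145 and 133 with it. On the scale of CPM these were 57.2 and 56.5 in input and 63.2 and 67.5 in IP, a small step in which the lowest IP column (62.5) still lay above the highest input column (60.6). The log2 ratio of 0.20 ± 0.14 did not pass the test (edgeR adjusted p = 0.22). With the 12 columns as samples, whose spread is little more than counting noise, it passed at log2 0.24 (adjusted p = 0.033), and by library total at 1.14. Hspa5 and Hsp90b1, the classic pair of UPR-induced chaperones, both with type I elements, thus had fold values of 2.82 and 1.15, and this difference between genes was not tested.

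**Figure D2:**
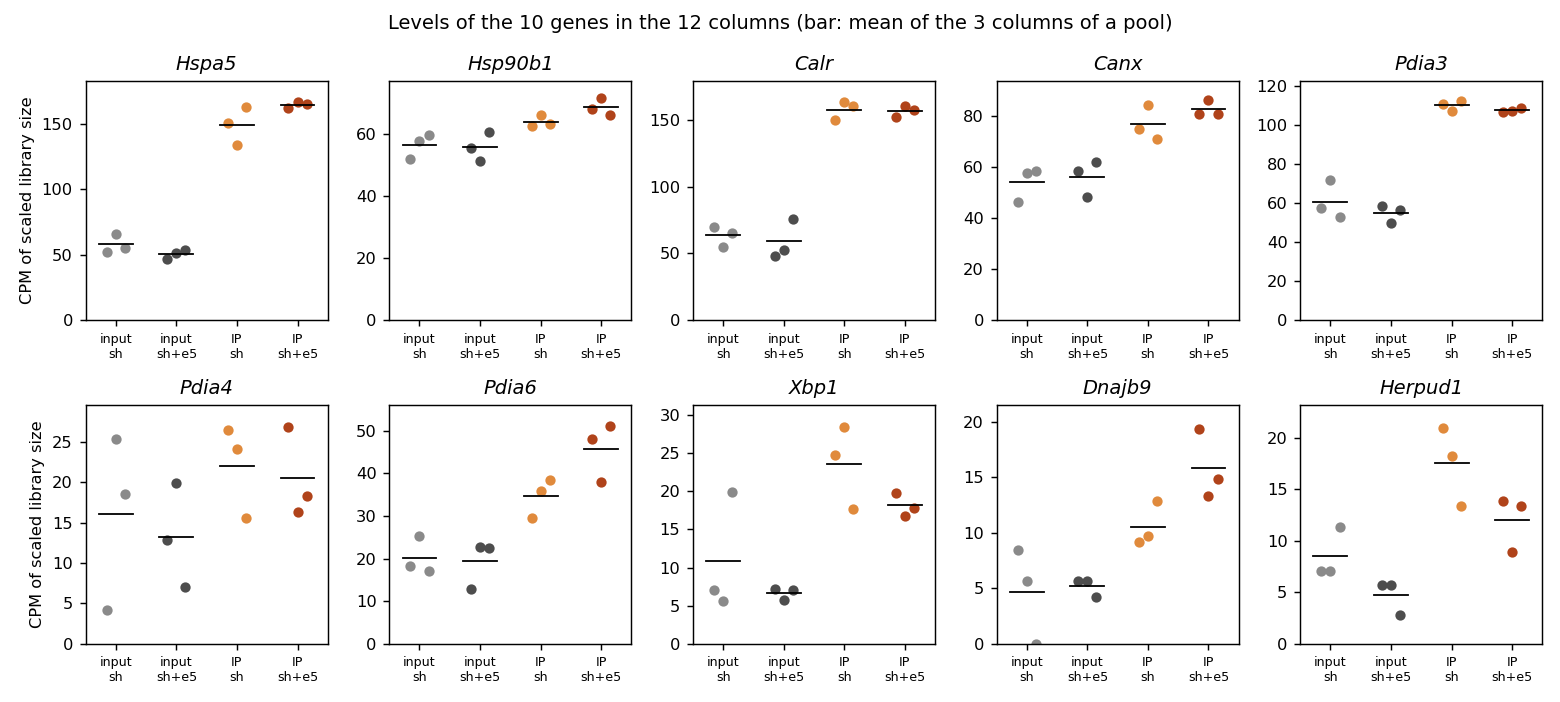
Level of each of the 10 genes in the 12 columns (vertical axis, CPM of scaled library size, each panel from 0), in input and IP without (sh) and with e5UTR (sh+e5); points are columns and bars their mean. Hspa5 and Calr stand far apart between input and IP, whereas the columns of Pdia4 overlap.

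Calr encodes calreticulin, the soluble lectin chaperone and calcium store of the ER lumen. Without e5UTR the gene had 50, 39 and 46 counts per input column and 279, 305 and 300 per IP column. With e5UTR these numbers were 34, 37 and 54 for input and 308, 326 and 319 for IP. This is 64.4 and 59.9 CPM in input against 156 and 155 CPM in IP, with no overlap of columns. The log2 ratio was 1.32 ± 0.13 (edgeR adjusted p = 9.1e-07).

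Canx encodes calnexin, the membrane-bound relative of calreticulin. Its input columns held 33, 41 and 41 counts without e5UTR and 41, 34 and 44 with it, and its IP columns 139, 157 and 133 without and 163, 175 and 163 with it. Its pools reached 54.8 and 57.0 CPM in input and 75.9 and 81.5 CPM in IP, with the lowest IP column (71.2) above the highest input column (62.0). Canx was 1.41-fold higher in IP, a log2 ratio of 0.49 ± 0.14 (edgeR adjusted p = 0.0066). DESeq2 on the pools gave log2 0.47 and did not call it (adjusted p = 0.077). The 2 lectin chaperones thus stood at 2.50-fold and 1.41-fold.

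Pdia3 encodes ERp57, the disulfide isomerase that works with both lectins on glycoproteins. Without e5UTR the gene had 41, 51 and 37 counts per input column and 206, 200 and 210 per IP column. With e5UTR these numbers were 41, 35 and 40 for input and 215, 217 and 219 for IP. The levels were 61.5 and 55.6 CPM in input and 109 and 106 CPM in IP, so the columns of the fractions did not overlap and the IP columns lay close together. The log2 ratio was 0.88 ± 0.14 (edgeR adjusted p = 6.7e-05). In the annotation Catsper2 overlaps Pdia3 and Atp6v1c2 overlaps Pdia6, and the sources used here do not say whether the counting used strand.

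Pdia6 encodes P5, an isomerase that binds BiP and acts on the sensor IRE1. Its input columns held 13, 18 and 12 counts without e5UTR and 9, 16 and 16 with it, and its IP columns 55, 67 and 72 without and 97, 77 and 103 with it. The levels were 20.5 and 19.6 CPM in input and 34.3 and 45.1 CPM in IP, again without overlap of columns. The log2 ratio was 0.98 ± 0.21 (edgeR adjusted p = 0.00087).

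Pdia4 encodes ERp72, a larger isomerase of the same family. Without e5UTR the gene had 3, 18 and 13 counts per input column and 49, 45 and 29 per IP column. With e5UTR these numbers were 9, 14 and 5 for input and 54, 33 and 37 for IP. The input columns without e5UTR differed by more than counting gives (chi-square p = 0.0058), and the fractions overlapped. Pooled, it reached 16.2 and 13.4 CPM in input and 21.8 and 20.2 CPM in IP. The log2 ratio of 0.50 ± 0.22 missed the threshold (edgeR adjusted p = 0.058); it passed in 9 of 21 alternatives, over which the adjusted p ran from 3.6e-05 to 0.32.

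Xbp1 encodes the transcription factor made active by IRE1 splicing; counts per gene do not separate its spliced and unspliced mRNA. Its input columns held 5, 4 and 14 counts without e5UTR and 5, 4 and 5 with it, and its IP columns 46, 53 and 33 without and 40, 34 and 36 with it. The third input column was high for its group (chi-square p = 0.019) and reached 19.9 CPM, above the lowest IP column at 16.8 CPM. As pools, input held 11.0 and 6.71 CPM and IP 23.4 and 17.9 CPM. Xbp1 was 2.32-fold higher in IP, a log2 ratio of 1.22 ± 0.28 (edgeR adjusted p = 0.0017).

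Dnajb9 encodes ERdj4, a BiP cochaperone that represses IRE1 and is itself a target of XBP1. Without e5UTR the gene had 6, 4 and 0 counts per input column and 17, 18 and 24 per IP column. With e5UTR these numbers were 4, 4 and 3 for input and 39, 27 and 30 for IP. The level was 4.77 and 5.27 CPM in input and 10.4 and 15.6 CPM in IP, and the columns of the fractions did not overlap. The log2 ratio was 1.38 ± 0.34 (edgeR adjusted p = 0.0028), and its error was the largest of the 10.

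Herpud1 encodes HERP, a membrane protein that gathers the machinery of ER-associated degradation. Its input columns held 5, 5 and 8 counts without e5UTR and 4, 4 and 2 with it, and its IP columns 39, 34 and 25 without and 28, 18 and 27 with it. This gave 8.58 and 4.79 CPM in input and 17.3 and 11.9 CPM in IP, with the lowest IP column (8.90) below the highest input column (11.4). Herpud1 was 2.17-fold higher in IP, a log2 ratio of 1.12 ± 0.33 (edgeR adjusted p = 0.0089). DESeq2 on the pools gave log2 1.11 and did not call it (adjusted p = 0.063).

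Over the columns, 7 of the 10 genes had all IP values above all input values, where 25.3% of all tested genes did; the exceptions were Pdia4, Xbp1 and Herpud1. Among the 7, Dnajb9 was tested through its IP columns only. The 10 genes together took 0.0254% and 0.0235% of the counts of the input pools and 0.0899% and 0.0923% of those of the IP pools. These shares are by library total, where the median of all tested genes was also higher in IP, at log2 1.00. On the TMM scale the sums were 358 and 330 CPM in input and 659 and 683 CPM in IP. Members with an element in the promoter and those without one had nearly the same median log2 ratio, 1.05 over 6 genes and 1.05 over 4. The 9 other tested genes with an element had a median of 0.30, with 3 higher and 3 lower. No test was made on these small sets.

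The same comparison was then made within each treatment, on the reads of 1 pool against 1 pool. After shGpr151 alone 8 of the 10 genes were higher in IP, where 31.1% of tested genes were (66.9% called, 35.8% lower), and with e5UTR 8 of 10, where 32.5% were (67.1% called, 34.6% lower). Both counts again include Xbp1, Dnajb9 and Herpud1, which were tested through their IP columns. Hsp90b1 and Pdia4 were the genes not called in both. The missed call of Hsp90b1 depended on the setting with e5UTR, where it was called in 8 of 20 alternatives (edgeR adjusted p 0.065, and 0.020 by DESeq2's size factors), and it was called in 3 of 20 after shGpr151 alone. Pdia4 was called in 1 of 20 in each treatment, by library total. Hspa5 was at 2.52 times input (95% interval 2.08 to 3.06) after shGpr151 and at 3.17 times (2.59 to 3.90) with e5UTR. For Calr the ratios were 2.43 (2.02 to 2.93) and 2.59 (2.15 to 3.14). The ratios of Pdia6 were 1.67 (1.20 to 2.39) and 2.29 (1.65 to 3.27).

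In both treatments the ratios of Canx were the lowest of those called, at 1.38 (1.12 to 1.72) and 1.43 (1.17 to 1.76). Pdia3 stood at 1.77 (1.46 to 2.16) and 1.91 (1.56 to 2.34). The low counts of Xbp1, Dnajb9 and Herpud1 gave them wide intervals. Xbp1 stood at 2.13 (1.36 to 3.48) and 2.67 (1.52 to 5.04), Dnajb9 at 2.19 (1.11 to 4.80) and 2.96 (1.58 to 6.13), and Herpud1 at 2.02 (1.21 to 3.55) and 2.48 (1.27 to 5.38). The intervals of Hsp90b1, at 1.10 (0.895 to 1.37) and 1.19 (0.971 to 1.48), and of Pdia4, at 1.34 (0.912 to 2.02) and 1.50 (0.991 to 2.35), included 1. The call of Dnajb9 after shGpr151 (edgeR adjusted p = 0.038) was lost without input shGpr151 replicate 2 or 3 or IP shGpr151 replicate 3, with a log2 ratio as low as 0.58 and an adjusted p up to 0.29, and that of Herpud1 with e5UTR (0.0073) was lost without replicate 3 of that input (0.052). Without input shGpr151 replicate 1 the log2 ratio of Dnajb9 after shGpr151 was 1.87 in place of 1.15. That of Xbp1 was 1.12, and moved to 1.88 without input shGpr151 replicate 3, the column with 14 counts, and to 0.82 without replicate 2; it was called each time.

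**Figure D3:**
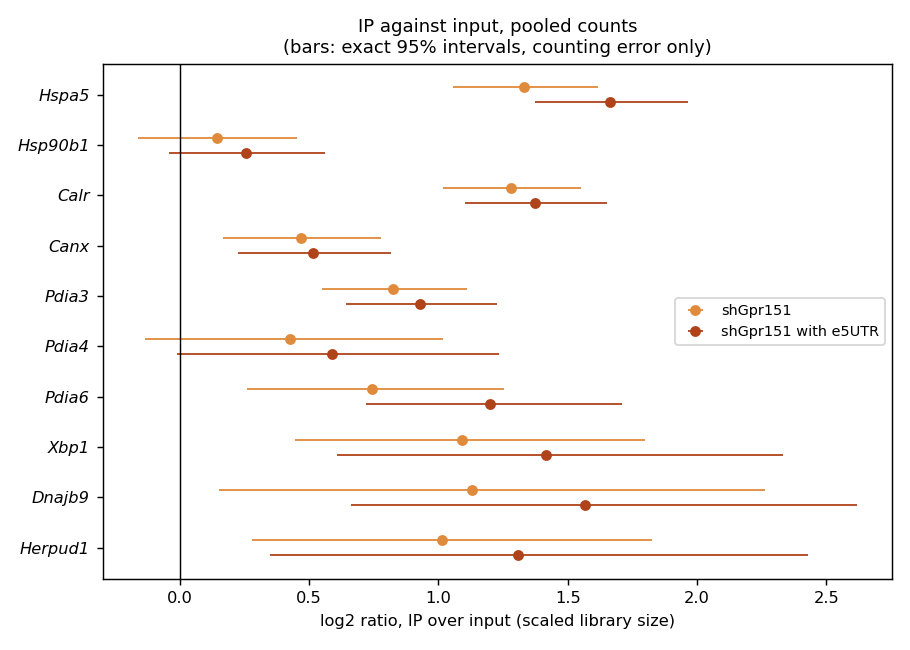
Ratio of pooled counts, IP over input, for each of the 10 genes (horizontal axis, log2 ratio of scaled library size) after shGpr151 and after shGpr151 with e5UTR; bars are exact 95% intervals that cover counting error only. All points lie above 0, and the bars of Hsp90b1 and Pdia4 include 0 in both treatments.

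The e5UTR comparisons asked whether the second virus went with another level of these mRNAs. In input 0 of the 10 genes were called by edgeR and 0 had an unadjusted p below 0.05, where 0.198% of tested genes (16) were called, 0.0124% higher and 0.186% lower, and 4.87% had an unadjusted p below 0.05, and DESeq2 and limma-voom also called 0 of the 10. At such low shares, 0 of 10 neither sets these genes apart nor shows that they did not differ. Each gene's Poisson intervals overlapped between the 2 input pools, and so did those of all but 1.41% of tested genes. The ratios of Hspa5, Calr, Canx, Pdia3 and Hsp90b1, with over 100 counts in each input pool, ran from 0.874 for Hspa5 (0.668 to 1.14) to 1.04 for Canx (0.798 to 1.36). Differences of the size these intervals span were not detectable at this depth. The rarer genes had wider limits, with Herpud1 at 0.558 (0.230 to 1.28), Xbp1 at 0.612 (0.291 to 1.24) and Dnajb9 at 1.11 (0.426 to 2.90).

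In IP, where counts were higher, 10.9% of tested genes (884) were called, 4.69% higher (379) and 6.25% lower (505) with e5UTR, and 0 of the 10 genes were. Scaled by DESeq2's size factors the split of all genes was 184 higher and 713 lower, and again 0 of the 10 were called. By DESeq2 and by limma-voom the count was also 0, and 3 of the 10 had an unadjusted p below 0.05 with edgeR, near the 22.8% of all tested genes that did. These were Pdia6 at 1.31 times (1.09 to 1.59; adjusted p = 0.093), Dnajb9 at 1.50 times (1.07 to 2.11; adjusted p = 0.20) and Herpud1 at 0.685 times (0.499 to 0.937; adjusted p = 0.16). In CPM the IP columns of Dnajb9 with e5UTR all lay above those without it (lowest 13.3 against highest 12.9), whereas those of Pdia6 (38.1 against 38.6) and of Herpud1 overlapped. Dnajb9 was the only 1 of the 10 without overlap, where 28.7% of tested genes had none. Without IP shGpr151 replicate 3, Herpud1 was called lower, at log2 -0.79 (edgeR adjusted p = 0.042), where the median of all tested genes stood at -0.0937. The Poisson intervals of the IP pools did not overlap for 1 of the 10, Pdia6, and for 15.0% of all tested genes.

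The other genes were closer to 1 or less sure. Hspa5 stood at 1.10 times (1.00 to 1.21), Hsp90b1 at 1.07 (0.926 to 1.23), Canx at 1.07 (0.942 to 1.22) and Calr at 0.991 (0.904 to 1.09). For these 4 chaperones the intervals in IP thus spanned 0.904 to 1.23. Pdia3 stood at 0.972 (0.869 to 1.09), Pdia4 at 0.927 (0.716 to 1.20) and Xbp1 at 0.766 (0.589 to 0.994; edgeR adjusted p = 0.32). The direction differed within the UPR group, with Dnajb9 above 1 and Xbp1 and Herpud1 below 1 in IP, none of them called.

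**Figure D4:**
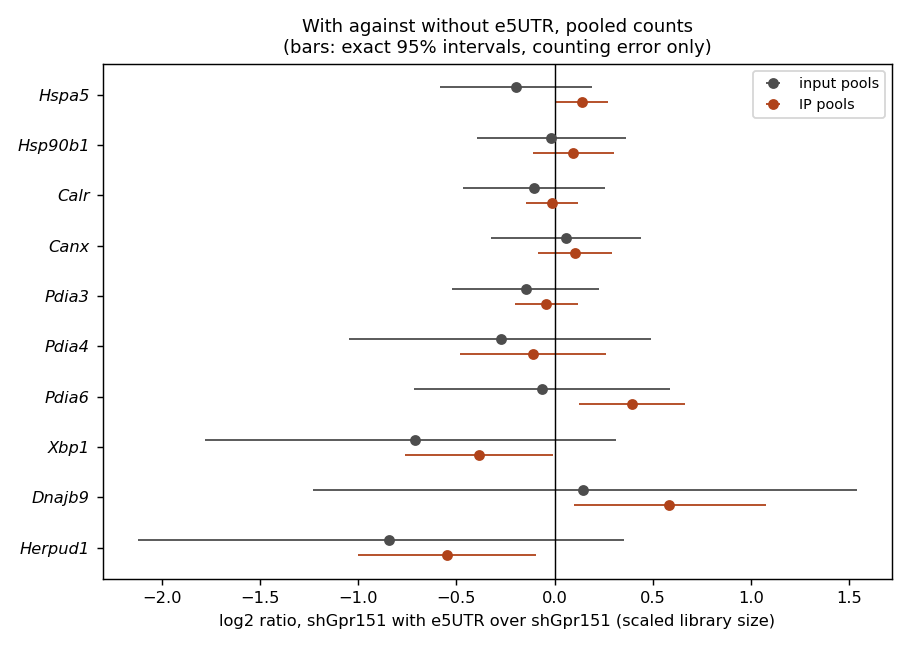
Ratio of pooled counts with e5UTR over without it for each of the 10 genes (horizontal axis, log2 ratio of scaled library size), in input and in IP; bars are exact 95% intervals that cover counting error only. None of the 20 differences was called. In IP the bars of Hspa5 (only just), Pdia6, Xbp1, Dnajb9 and Herpud1 lie to 1 side of 0. How many of all tested genes have such bars was not counted, so this is not a result about the 10 genes.

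The interaction of fraction and e5UTR, which asks whether the e5UTR difference was unlike in IP and input, was called for 0 of the 10 genes, where 5.11% of tested genes (413) were called, 1.57% higher and 3.54% lower. By DESeq2's size factors the split of all genes was 56 higher and 364 lower in place of 127 and 286. None of the 10 had an unadjusted p below 0.05, where 15.7% of tested genes had one, and DESeq2 and limma-voom called 0 of them as well. The values ran from 0.05 for Canx to 0.46 for Pdia6, with errors of 0.18 to 0.72, and the lowest edgeR adjusted p was 0.44, for Hspa5. The median of 0.23 stood beside -0.01 for all genes. All 4 pools enter each of these values, which therefore restate the ratios above.

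Among themselves the members followed different profiles over the 4 pools. Centred on its own mean in log2 CPM, Pdia3 lay closest to the mean profile of the 10 (root mean square distance 0.054) and Hsp90b1 farthest (0.389). The 5 other genes most like that mean profile, of 1818 with at least 100 counts in every pool, were Psmc6, a proteasome ATPase, Itgb1, the integrin beta chain, Atp6v1h, a subunit of the vacuolar proton pump, Bola1 and the small GTPase gene Rhoc. Their distances were 0.053 to 0.062, over 4 pools only.

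Genes around the 10 in the pathway were taken from 6 lists of other ER folding and UPR genes, counted by TMM and then by library total, which calls more of all genes higher. Among UPR sensors and transcription factors, 6 of 8 tested genes were higher and 1 lower in IP (median log2 0.96), and by library total 7 and 1. The highest were the ER-anchored factor gene Creb3 at log2 1.67, Atf4, the factor translated when PERK is active, at 1.49, and Nfe2l1, a factor that is activated out of the ER membrane, at 1.03. Mbtps1 encodes the site-1 protease that cuts ATF6, and it fell by 1.51 on the log2 scale (42.0 and 54.6 CPM in input, 17.9 and 15.9 CPM in IP).

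Of the PERK branch and stress-induced targets, 5 of 7 tested genes were higher and 0 lower (median 0.75), and by library total 7 and 0. Asns, asparagine synthetase, rose by 2.76 on the log2 scale, from 14.8 and 21.6 CPM in input to 121 and 126 CPM in IP. Chac1, which degrades glutathione, rose by 2.34, and Wfs1, an ER membrane protein gene, by 1.22. In this list Sesn2 was at 0 in 1 input pool and was not tested.

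Of the other ER chaperones and cochaperones, 3 of 22 tested genes were higher and 9 lower in IP, with a median of -0.14. By library total this turned to 16 higher and 3 lower, with a median of 0.80. The BiP cochaperone gene Dnajb11 rose by 1.47 and Creld1, a membrane-anchored relative of Creld2, by 2.29. Dnajc10, a BiP cochaperone with isomerase domains, was called at 0.66 (edgeR adjusted p = 0.049) and lost that call in 9 of 21 alternatives, over which the adjusted p ran from 0.00013 to 0.27. The prolyl isomerase genes Fkbp9 and Fkbp7 fell by 2.53 and by 1.86. Fkbp9 held 112 and 83 counts in input against 38 and 57 in IP.

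Of the other disulfide isomerases and ER oxidases, 6 of 15 tested genes were higher and 4 lower (median 0.13), but by library total 11 were higher and 2 lower (median 1.07). P4hb, the founding disulfide isomerase PDI, rose by 1.58 on the log2 scale, from 20.5 and 24.4 CPM in input to 67.8 and 66.4 CPM in IP. The membrane-bound isomerase gene Tmx1 rose by 1.71 and Txndc15 by 1.17. Txndc16 and Txndc11, of the thioredoxin domain family, fell by 2.67 and by 2.62.

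In glycoprotein quality control, where glucosidases trim the sugars that calnexin and calreticulin read, 4 of 8 tested genes were higher and 1 lower (median 0.68), and by library total 7 and 0. Prkcsh, the beta subunit of glucosidase II, rose by 1.39, while Ganab, its alpha subunit, fell by 1.07. The 2 subunits thus went in opposite directions by TMM; by library total Ganab stood at -0.13 and was not called. The mannosidase gene Man1b1 rose by 1.29, and Mogs, glucosidase I, was called at 1.12 (edgeR adjusted p = 0.036) and in 8 of 14 alternatives, over which the adjusted p ran from 0.00059 to 0.21.

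In ER-associated degradation, which draws misfolded proteins out of the ER for the proteasome, 14 of 24 tested genes were higher and 5 lower (median 0.77), and by library total 19 and 1. Bag6, which shields exposed membrane segments, rose by 2.04, the lectin gene Erlec1 by 1.56 and the ubiquitin ligase gene Rnf185 by 1.49. Derl2, a channel component, fell by 1.85 and Selenos, a selenoprotein that binds VCP at the ER, by 1.43; the call of Selenos was lost in 1 of 21 alternatives.

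For scale, 2 lists outside the pathway were measured the same way. Of 24 genes listed as cytosolic chaperones 19 were higher and 3 lower in IP (median 1.30; by library total 22 and 2), with Hspa8, the constitutive Hsp70, at log2 2.71 and Hsp90ab1 at 1.51. That list also holds Hspa9, whose product is mitochondrial. Of 29 tested genes of the ER translocon and signal peptidase 7 were higher and 15 lower (median -0.29; by library total 18 and 3, median 0.65), with the oligosaccharyltransferase subunit gene Rpn2 lower by TMM, at -2.52, and Sec61g not called at -0.08. The member median of 1.05 thus lay between those of the cytosolic chaperones and of the translocon genes, and these differences between lists were not tested.

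**Figure D5:**
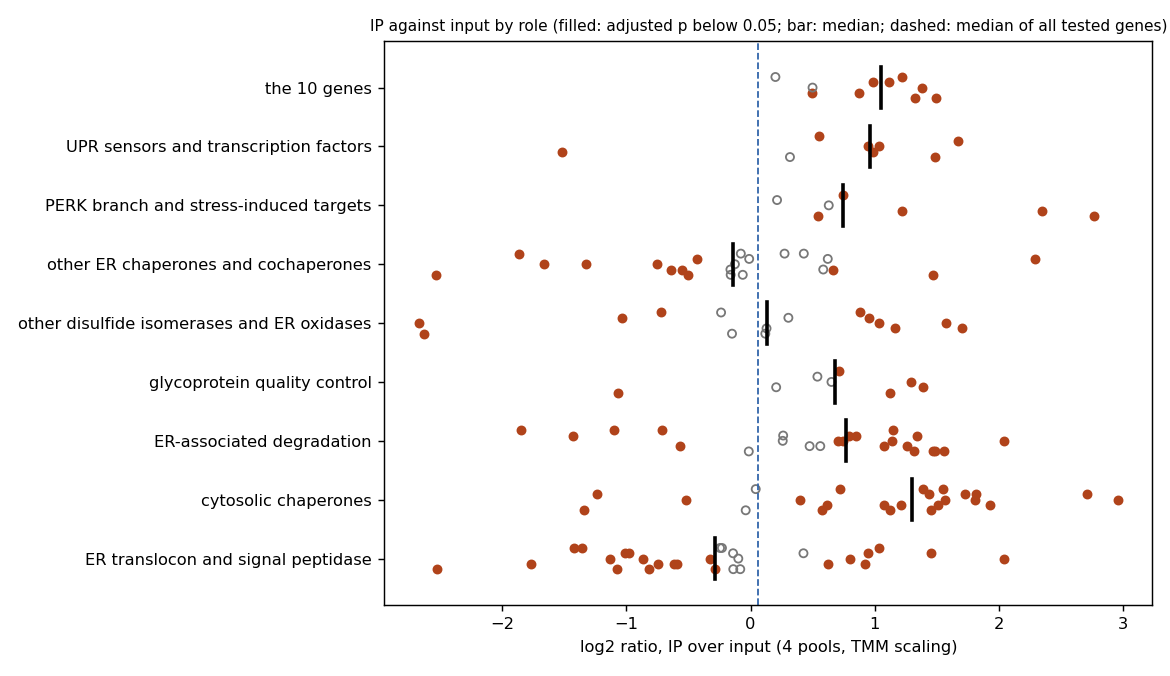
Log2 ratio of IP over input for each tested gene of the 10, of the 6 lists of other ER and UPR genes and of the 2 lists outside the pathway (horizontal axis, 4 pools, TMM scaling); filled points have an adjusted p below 0.05, bars are list medians and the dashed line is the median of all tested genes, 0.06. The 10 genes all lie to the right of that line.

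With e5UTR, 6 genes of the 6 lists were called in IP, where 10.9% of all tested genes were, and 0 in input. They were 1 of 8 tested UPR sensors and factors, 1 of 7 PERK branch and stress-induced targets and 1 of 15 other isomerases and oxidases. Of 24 degradation genes 2 were higher and 1 lower. Among 22 other chaperones and 8 genes of glycoprotein quality control 0 were called. Whether the lists differ from all genes was not tested. Atf4 fell by 0.30 on the log2 scale (edgeR adjusted p = 0.020), from 337, 323 and 329 counts to 265, 305 and 299, or from 175 to 141 CPM. This call held in 20 of 20 alternatives. Chac1, a target of ATF4, fell by 0.70 (adjusted p = 0.028, called in 17 of 19 alternatives), from 43, 47 and 56 counts to 39, 31 and 27. The ratios of pooled counts were 0.808 (0.737 to 0.886) for Atf4 and 0.611 (0.468 to 0.795) for Chac1. The 7 tested genes of the list that holds Chac1 had a median log2 ratio of 0.09 in IP, with 6 not called. Asns, of the same list, stood at 1.05 times (0.943 to 1.16). A change of the targets of ATF4 as a set was not tested. Atf4 stood at log2 -0.29 ± 0.20 in input, where it was not called, and its interaction was at -0.02 (adjusted p = 0.98). Aup1, a degradation factor on lipid droplets, fell by 0.50 (adjusted p = 0.045) but was called in 8 of 20 alternatives, over which the adjusted p ran from 0.0033 to 0.10.

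The genes that rose with e5UTR in IP were Vkorc1, Vcp and Selenos. Vkorc1, the vitamin K epoxide reductase gene, rose by 0.38 (edgeR adjusted p = 0.017, called in 13 of 20 alternatives) and Vcp, the ATPase that extracts proteins from the ER, by 0.20 (0.014, called in 12 of 20). Selenos rose by 0.93 (0.019, called in 15 of 20), from 14, 11 and 14 counts to 24, 21 and 36. The interaction was called for none of these 6 genes, with adjusted p from 0.12 to 0.98.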

How the data were processed

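The authors deposited 1 table of estimated counts, all of them whole numbers, with genes in rows. Per the labels' protocols, a cDNA-PCR barcoding kit for Nanopore sequencing was used; no use of molecular identifiers was found, so reads are not independent molecules. Per the submitters' processing notes, minimap2, Salmon and the builds GRCm39 and mm39 were used, without versions or roles. The sources used here do not give the settings of the counting. No gene had fewer than 13 counts in all.

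Columns were matched to samples by name, and symbols were found for 89.9% of IDs. IP against input was fitted on 4 pools with edgeR 4.0.16 (R 4.3.3, TMM, quasi-likelihood, fraction only); the other comparisons were fitted on 12 columns as 4 group means, which compares the reads of these pools, not conditions. Genes were kept by filterByExpr (minimum count 10, minimum total 15) and p-values adjusted by Benjamini-Hochberg at 0.05. The common biological coefficient of variation of edgeR, the spread beyond counting noise, was 10.3% over pools and 2.58% over columns. The fits were run on simulated data as a check of the code. There few genes changed, evenly up and down, and the 12-column data had counting noise only. These runs do not show how scaling or calls behave where most genes differ or pools vary. Alternatives were other scalings and filters, DESeq2 1.42.0, limma-voom 3.58.1, the replicate block, other models and leaving out each column.

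The 10 genes and the lists were chosen with earlier results of these data known. Named are all 10 genes, up to 3 highest and 2 lowest called genes of each of the 6 ER lists, those called with e5UTR, the 2 with the most counts in lists outside the pathway and the 5 of most similar profile. Marker genes named were chosen for their counts, for being at 0 or after their values were seen. Promoters are RefSeq sequences of another build (GRCm38.p6) than that of the counts. Protein sequences were not used here.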

Additional observations from a re-analysis of the deposited data

How the results depend on the processing

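In the 3 comparisons of IP with input none of the 10 genes changed direction under any alternative run (210, 200 and 200 values). Over both fractions the number of the 10 called was 8, and 6 to 10 under the alternatives: 6 with DESeq2, 10 by library total and 8 to 9 when a column was left out. In the e5UTR comparisons directions did turn, always in values that were not called. No pairing by replicate number was seen: deviations of same-numbered columns correlated at -0.067 to 0.042 (18 pairs) and those of other pairs at -0.041 to 0.066. Since the columns of a group differ by little more than counting noise, this check could not detect a pairing. With the replicate block 9 of the 10 were called over both fractions (9 on the same 12 columns without it), 8 and 8 within the treatments and 0, 0 and 0 in the e5UTR comparisons and the interaction. Of the other genes named, Aup1 lost its e5UTR call in IP with the block (edgeR adjusted p = 0.053), and the block changed no other call of a named gene.

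Without 1 column at a time, the e5UTR log2 ratio in input ran from -0.328 to 0.0219 for Calr, -0.0385 to 0.157 for Canx, -0.43 to 0.86 for Dnajb9, -0.0794 to 0.0438 for Hsp90b1, -0.72 to 0.23 for Pdia4, -0.19 to 0.16 for Pdia6 and -1.01 to 0.0602 for Xbp1. In IP it ran from -0.0372 to 0.107 for Canx, -0.0228 to 0.0999 for Hsp90b1 and -0.0216 to 0.142 for Hspa5, and the number of the 10 called was 0 to 1 (Herpud1, without IP shGpr151 replicate 3). Leaving out an IP column also moved the median of all tested genes in IP, from 0.0016 to between -0.0975 and -0.0924. The interaction ran from -0.0316 to 0.319 for Calr, -0.0886 to 0.144 for Canx, -0.28 to 1.01 for Dnajb9, -0.0012 to 0.18 for Hsp90b1, -0.0342 to 0.204 for Pdia3, -0.34 to 0.61 for Pdia4 and -0.44 to 0.63 for Xbp1. It also turned to -0.0167 for Canx with DESeq2 and its size factors, and with limma-voom to -0.0399 for Pdia4 and -0.19 for Dnajb9; the cause was not tested. The median interaction of all tested genes was -0.0751 with DESeq2, -0.0745 by its size factors and -0.0045 with limma-voom. By library total, which moves all genes by the same amount, the medians of the other ER chaperones and of the translocon genes in IP against input turned to 0.80 and 0.65. The counts of Xbp1, Dnajb9 and Herpud1 in input, 10 to 23 per pool, limit what can be said of them.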
